A study of Mus musculus with 12 samples.

Results

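The mouse MHC class I heavy chains described here are encoded by 10 genes, H2-D1, H2-K1, H2-Q4, H2-Q6, H2-Q7, H2-Q10, H2-T22, H2-T23, H2-T24 and H2-M3. They were chosen by symbol as classical and non-classical class I heavy chain genes, with earlier results of these data known. All 10 were among the 28188 gene symbols of the count table and passed the filter on low counts in every fit. Poly(A)-selected RNA from isolated spleen cells of 12-week-old mice had been sequenced in 12 libraries, 3 in each of 4 groups: NOD.Idd2 dendritic cells, NOD dendritic cells, NOD.Idd2 B cells and NOD B cells. NOD is the inbred strain that develops autoimmune diabetes, and the submitters named it as the control. NOD.Idd2 is that strain carrying the Idd2 diabetes locus of B10 origin, and by its title the study asks how that locus alters the B cell transcriptome. The labels give no treatment, and they state neither the bounds of the introduced segment nor how the cells were isolated. By name both strains share the NOD background, and whether they also differ outside the introduced segment is not stated. Whether a group's libraries came from separate or pooled animals is not stated, so p-values measure the spread between these libraries, which may be technical.

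Class I heavy chains pair with beta-2 microglobulin in the endoplasmic reticulum, are loaded there with peptides cut by the proteasome and carried in by the TAP transporter, and present them at the cell surface. The classical molecules H2-K and H2-D show peptides to CD8 T cells, and B cells and dendritic cells both carry them. The non-classical molecules have narrower roles: the Qa-2 antigens come from genes such as H2-Q6 and H2-Q7, H2-T23 encodes Qa-1, which is recognised by NKG2 receptors, and H2-M3 presents N-formylated peptides of bacteria. NOD mice carry the classical alleles Kd and Db, and the genome build named by the submitters comes from C57BL/6J, a strain with Kb and the same Db. All 10 genes lie on chromosome 17, whereas Idd2 is a chromosome 9 locus.

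The promoters are shown because one stretch is nearly the same in the genes that differed between the strains and in several that did not. Windows of 250 bases before to 50 bases after the start site were taken from RefSeq (GRCm38.p6), which held an entry for 9 of the 10 genes (none for H2-T24). They are sequences of the reference strain, and those of NOD and NOD.Idd2 were not examined. A kappa B motif (GGGANTCCC) and an interferon-stimulated response motif (TTTCNNTTC) were searched on both strands. Their matches did not overlap each other. Each line below gives 46 bases, 5′ to 3′ on the strand of the gene, with these motifs in capitals.
H2-D1 (chr17:35262912-35262957, plus): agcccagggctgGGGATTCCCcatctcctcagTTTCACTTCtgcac
H2-K1 (chr17:34000424-34000469, minus): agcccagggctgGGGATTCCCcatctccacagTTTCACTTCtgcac
H2-Q4 (chr17:35379432-35379477, plus): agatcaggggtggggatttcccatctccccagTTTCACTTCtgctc
H2-Q6 (chr17:35424666-35424711, plus): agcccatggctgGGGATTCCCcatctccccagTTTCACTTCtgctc
H2-Q7 (chr17:35439010-35439055, plus): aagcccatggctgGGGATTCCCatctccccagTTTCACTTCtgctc
H2-Q10 (chr17:35469902-35469947, plus): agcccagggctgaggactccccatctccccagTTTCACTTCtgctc
H2-M3 (chr17:37270101-37270146, plus): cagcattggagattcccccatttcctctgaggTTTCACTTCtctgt

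The kappa B letters were found in 4 of the 9 promoters (H2-D1, H2-K1, H2-Q6 and H2-Q7), against 0.903% of 27025 mouse promoters of the same length. The H2-Q4 window holds gggatttccc, which the searched letters do not match, and longer forms of the motif were not searched. The response element letters were found in 7 of the 9, beginning 90 to 155 bases before the start site, against 8.68% of all promoters. H2-T22 and H2-T23 held neither. Of 2 shorter motifs, TGACGC was in 4 of 9 and ATTGG in 8 of 9, against 8.37% and 41.1% of all promoters. In dendritic cells H2-D1, H2-Q6 and H2-Q7 were lower in NOD.Idd2 and H2-K1 was higher. Whether the kappa B letters have a part in these differences was not tested.

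Library totals were 8663421 to 30337812 counts in dendritic cells and 40344883 to 44632276 counts in B cells. The shallowest library was NOD.Idd2 dendritic cell replicate 3. Levels are given as CPM, counts relative to the scaled library total, over the 12 libraries. The summed CPM of 5 B cell markers was 9340 to 9540 in NOD.Idd2 B cells and 9130 to 9538 in NOD B cells, and at most 72.0 in any dendritic cell library. The summed CPM of 6 dendritic cell markers was 3447 to 3651 in NOD.Idd2 dendritic cells and 3481 to 3755 in NOD dendritic cells, and at most 8.94 in any B cell library. Macrophage and monocyte markers summed to 660 to 670 CPM in NOD.Idd2 dendritic cells and 582 to 677 CPM in NOD dendritic cells, against 29.2 to 34.4 CPM in NOD.Idd2 B cells and 23.4 to 29.9 CPM in NOD B cells. No marker of any list was at 0 counts in a whole group. In bulk RNA, fewer cells of a type and less RNA per cell cannot be told apart. Xist, which is transcribed from the inactive X chromosome, had 1 to 4 counts in each dendritic cell library and 68008 to 89864 counts in each B cell library, and the Y-linked Ddx3y had 2105 to 8344 counts in each dendritic cell library and 0 in each B cell library. The labels give no sex. Each strain comparison was thus made within libraries of 1 sex pattern, and cell type and sex cannot be told apart. Replicate 3 of the B cells stood apart in both strains: its chi-square per gene against the other replicates of its group was 41.2 to 47.1, against 7.93 to 8.48 between replicates 1 and 2.

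H2-D1, one of the 2 classical genes, was lower in NOD.Idd2 in both cell types, and H2-K1, the other, was higher in NOD.Idd2 in dendritic cells. H2-D1 (GRCm38 chr17:35262730-35267499, plus strand, by GENCODE) had 524, 529.7 and 485 CPM in NOD.Idd2 dendritic cells, against 1628.5, 1727 and 1598 CPM in NOD dendritic cells. It had 326, 320 and 398 CPM in NOD.Idd2 B cells, against 950.4, 956 and 1057 CPM in NOD B cells. In each cell type every NOD.Idd2 library was below every NOD library. The share of all genes free of overlap between groups is not given, here or below. The log2 fold change of H2-D1, NOD.Idd2 over NOD, was -1.67 (SE 0.053, adjusted p = 5.37e-09) in dendritic cells, a ratio of 0.314. In B cells it was -1.51 (SE 0.098, adjusted p = 0.00223), a ratio of 0.352. These adjusted p-values, and those that follow unless another test is named, come from edgeR's quasi-likelihood test, adjusted by Benjamini-Hochberg over all genes tested, with a threshold of 0.05.

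H2-K1 (chr17:33996017-34000347, minus strand) had 1089.9, 936 and 999 CPM in NOD.Idd2 dendritic cells, against 593, 716 and 672 CPM in NOD dendritic cells. It had 648, 708 and 812 CPM in NOD.Idd2 B cells, against 461, 526 and 617 CPM in NOD B cells. Both pairs of groups were free of overlap, with the NOD.Idd2 libraries above. The rise passed the test in dendritic cells (log2 fold change 0.63, SE 0.074, adjusted p = 0.00136). In B cells the log2 fold change was 0.43 (SE 0.13) and did not pass (adjusted p = 0.725). Deviations from the group mean correlated between same-numbered B cell libraries of the strains (0.519, 0.326 and 0.753). Replicates 1 and 2 also correlated across numbers (0.395 and 0.355), so pairing by number is uncertain for them. In a fit blocked on replicate number the B cell value was 0.44 (SE 0.033, adjusted p = 4.51e-05).

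**Figure D1:**
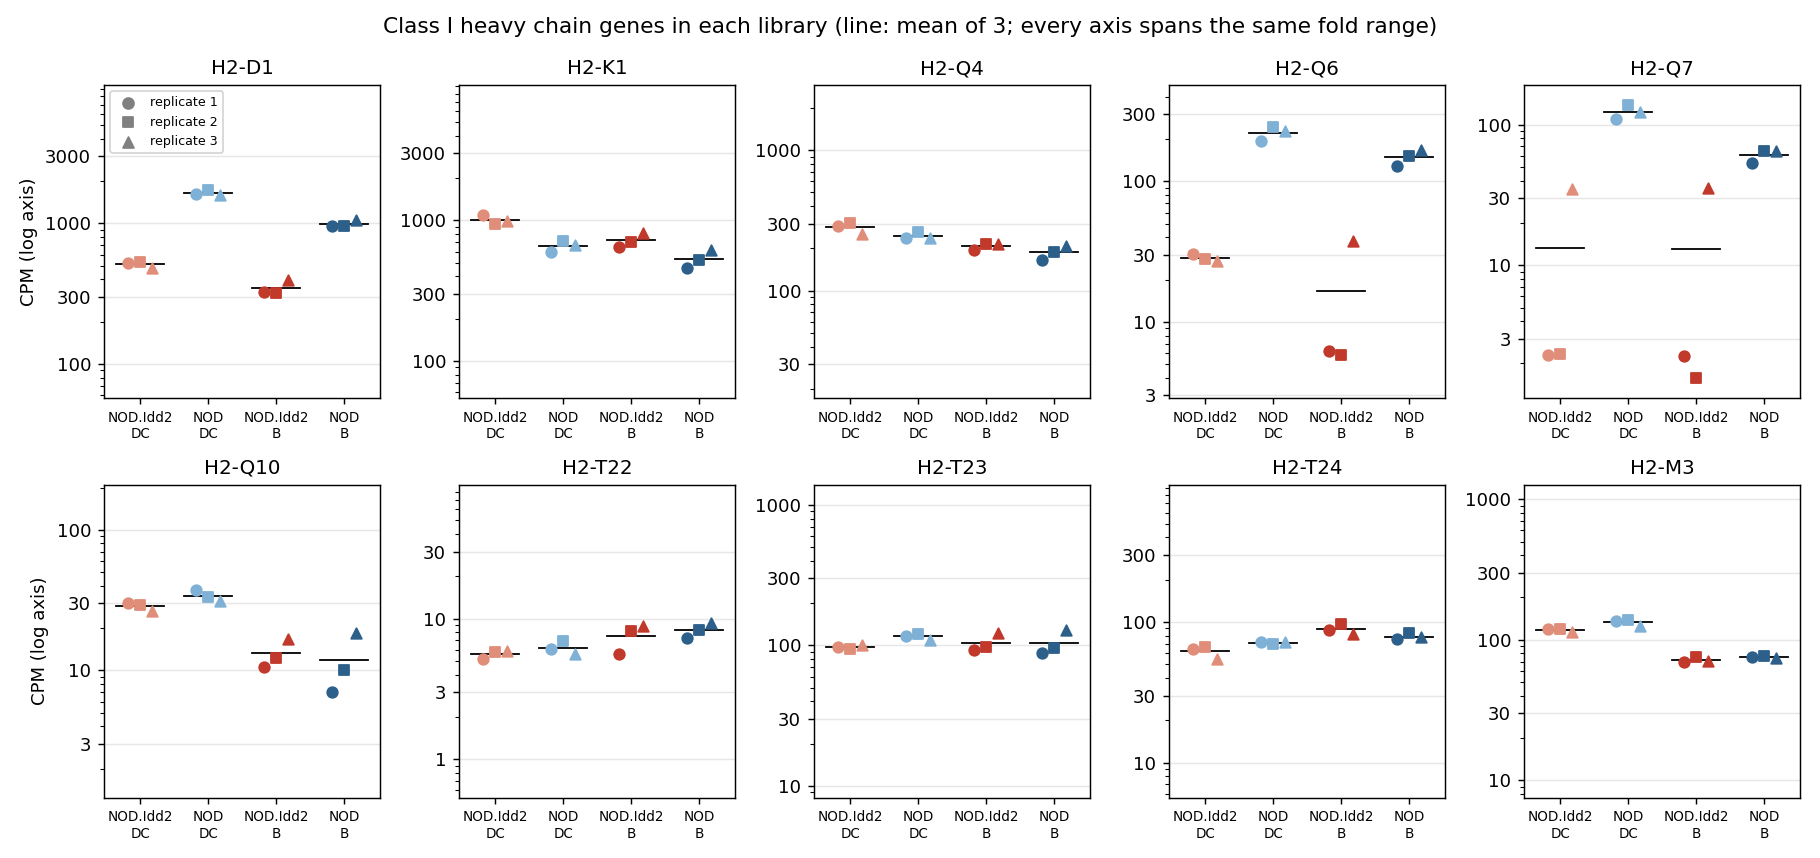
CPM (log axis, the same fold range in every panel) of the 10 class I heavy chain genes in each of the 12 libraries, with the replicate shown by the symbol and the mean of 3 libraries by a line; DC, dendritic cells; B, B cells. H2-D1, H2-Q6 and H2-Q7 sit lower in the NOD.Idd2 libraries than in the NOD libraries of the same cell type, H2-K1 sits higher, and replicate 3 stands above replicates 1 and 2 for H2-Q7 in both NOD.Idd2 groups and for H2-Q6 in NOD.Idd2 B cells.

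The balance of the classical transcripts differed more than either gene alone. Within a library, the ratio of H2-D1 counts to H2-K1 counts was 0.481, 0.566 and 0.485 in NOD.Idd2 dendritic cells, against 2.75, 2.41 and 2.38 in NOD dendritic cells. It was 0.503, 0.452 and 0.491 in NOD.Idd2 B cells, against 2.06, 1.82 and 1.71 in NOD B cells. All 6 NOD.Idd2 libraries were under 1 and all 6 NOD libraries were over it. The ratio of the mean ratios, NOD.Idd2 over NOD, was 0.203 ± 0.025 in dendritic cells and 0.258 ± 0.029 in B cells (SD carried over from both groups). This measure does not depend on the scaling between libraries. The reference has the NOD allele Db but Kb in place of Kd. How this affects the level of the ratio and the shares given below was not tested. Per kilobase of exon, the mean ratio was 0.582 ± 0.054 in NOD.Idd2 dendritic cells and 2.86 ± 0.23 in NOD dendritic cells (SD, n = 3 each), and 0.549 ± 0.030 in NOD.Idd2 B cells and 2.12 ± 0.20 in NOD B cells (SD, n = 3 each).

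The fall of H2-D1 was larger in CPM than the gain of H2-K1, and the class I total was lower in NOD.Idd2. The summed CPM of the 10 genes was 2254, 2115 and 2099.8 in NOD.Idd2 dendritic cells, against 3129, 3452 and 3203 in NOD dendritic cells. It was 1442, 1539 and 1799 in NOD.Idd2 B cells, against 2009.9, 2161 and 2423.5 in NOD B cells. The strains did not overlap in either cell type. The ratio of means, NOD.Idd2 over NOD, was 0.661 ± 0.043 in dendritic cells and 0.725 ± 0.11 in B cells (SD carried over from both groups). A sum over chosen genes was given no test. H2-D1 and H2-K1 together averaged 1521 ± 81.1 CPM in NOD.Idd2 dendritic cells and 2311 ± 116 CPM in NOD dendritic cells (SD, n = 3 each). In B cells they averaged 1071 ± 124 CPM in NOD.Idd2 and 1522 ± 136 CPM in NOD (SD, n = 3 each).

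Shares of the pool changed places. H2-D1 supplied 23.8 ± 1.1% of the summed CPM in NOD.Idd2 dendritic cells and 50.7 ± 1.2% in NOD dendritic cells, and 21.8 ± 0.94% in NOD.Idd2 B cells and 45.0 ± 2.0% in NOD B cells (SD, n = 3 each). H2-K1 supplied 46.7 ± 2.2% in NOD.Idd2 dendritic cells and 20.2 ± 1.1% in NOD dendritic cells, and 45.3 ± 0.57% in NOD.Idd2 B cells and 24.2 ± 1.3% in NOD B cells (SD, n = 3 each). H2-Q6 and H2-Q7 together supplied 1.94 ± 0.87% in NOD.Idd2 dendritic cells and 10.6 ± 0.76% in NOD dendritic cells, and 1.71 ± 2.0% in NOD.Idd2 B cells and 9.54 ± 0.50% in NOD B cells (SD, n = 3 each). Replicate 3 carried the NOD.Idd2 B cell value: the libraries stood at 0.584%, 0.478% and 4.06%, a mean of 0.531% without replicate 3. The other 6 genes summed to 593 ± 34.2 CPM in NOD.Idd2 dendritic cells and 605 ± 24.7 CPM in NOD dendritic cells, and to 493 ± 29.4 CPM in NOD.Idd2 B cells and 466 ± 49.4 CPM in NOD B cells (SD, n = 3 each). For these 6 genes together, the strains differed by less than the spread between replicates in both cell types.

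**Figure D2:**
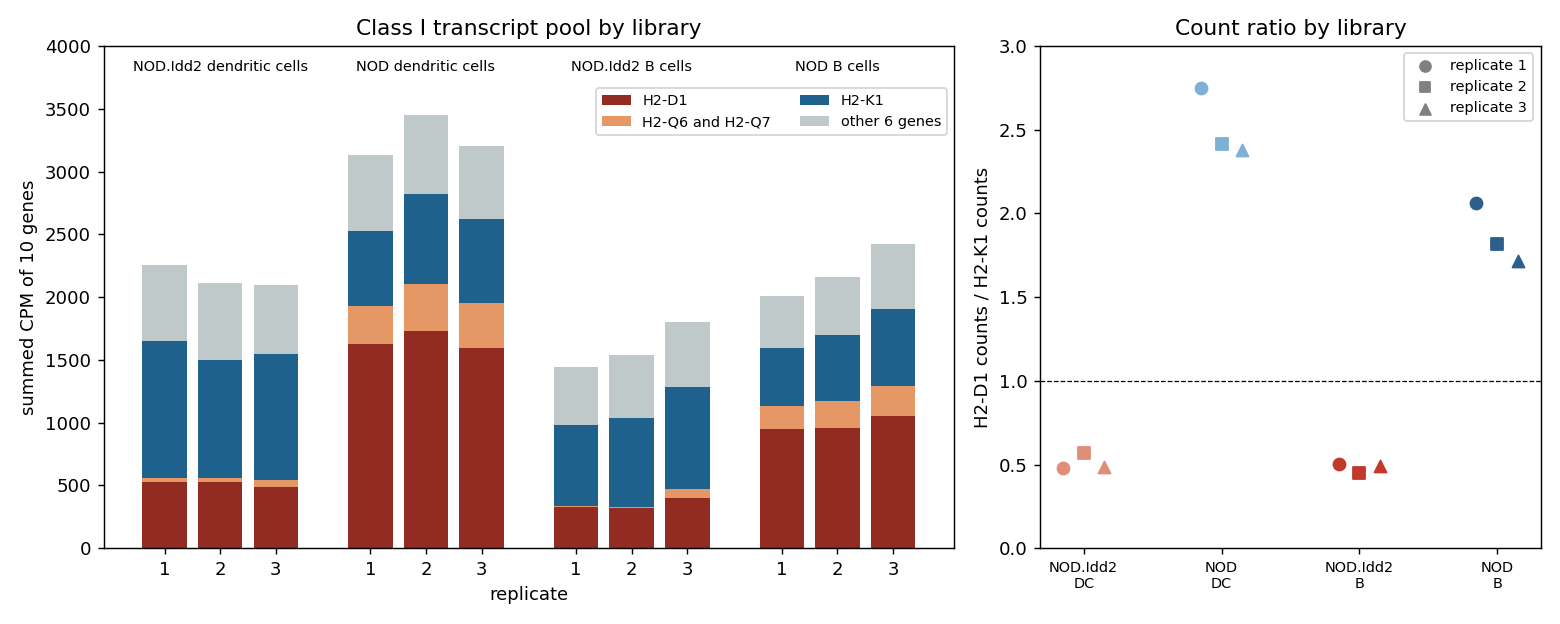
Left, summed CPM of the 10 genes in each library (linear axis), with the bars split into H2-D1, H2-Q6 with H2-Q7, H2-K1 and the other 6 genes. Right, H2-D1 counts divided by H2-K1 counts in each library, with a dashed line at 1. The NOD.Idd2 ratios lie between 0.452 and 0.566 and the NOD ratios between 1.71 and 2.75.

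H2-Q6 and H2-Q7, the genes of the Qa-2 antigens, showed the lowest NOD.Idd2 to NOD ratios of the 10 genes in both cell types. H2-Q6 (chr17:35424850-35430055, plus strand) had 30.2, 28.0 and 27.0 CPM in NOD.Idd2 dendritic cells, against 193, 242 and 229 CPM in NOD dendritic cells. The groups were far apart and their replicates close together. The log2 fold change was -2.94 (SE 0.086, adjusted p = 3.31e-09), a ratio of 0.130. In B cells H2-Q6 had 6.16, 5.77 and 37.6 CPM in NOD.Idd2, against 128, 151 and 168 CPM in NOD. The groups did not overlap, but replicate 3 stood apart from replicates 1 and 2 within NOD.Idd2. The log2 fold change of -3.17 (SE 0.73) did not pass (adjusted p = 0.540).

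The H2-Q6 call in B cells depended on that replicate and on the fit. Without NOD.Idd2 B cell replicate 3 the log2 fold change was -4.65 (adjusted p = 2.78e-04), and with the replicate block it was -3.46 (SE 0.36, adjusted p = 7.40e-04). DESeq2 gave an adjusted p of 0.0362 and a fit of all 12 libraries gave 0.0302.

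H2-Q7 (chr17:35439155-35443773, plus strand) had 2.31, 2.33 and 34.9 CPM in NOD.Idd2 dendritic cells, from 52, 70 and 307 counts, against 110.3, 137 and 123 CPM in NOD dendritic cells. In B cells it had 2.27, 1.58 and 35.5 CPM in NOD.Idd2, against 53.1, 65.1 and 64.8 CPM in NOD. In both cell types replicate 3 of NOD.Idd2 was the high one, and it still lay below every NOD library. The log2 fold change in dendritic cells was -3.80 (SE 0.66, adjusted p = 0.0157). Without NOD.Idd2 dendritic cell replicate 3 it was -5.73 (adjusted p = 4.54e-08). The call ended without NOD.Idd2 dendritic cell replicate 1 (-3.17, adjusted p = 0.0997) or replicate 2 (-3.06, adjusted p = 0.0978), in DESeq2 (adjusted p = 0.201) and in the fit of all 12 libraries (adjusted p = 0.246). In B cells the log2 fold change was -2.21 (SE 1.0, adjusted p = 0.793), -2.85 with the replicate block (adjusted p = 0.0572) and -5.00 without NOD.Idd2 B cell replicate 3 (adjusted p = 3.61e-04).

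H2-Q7 made up 7.09%, 7.68% and 56.3% of the summed H2-Q6 and H2-Q7 CPM in NOD.Idd2 dendritic cells, against 34.9% to 36.4% in NOD dendritic cells. It made up 26.9%, 21.5% and 48.5% in NOD.Idd2 B cells, against 27.8% to 30.1% in NOD B cells. Neighbours that are not among the 10 genes were also high in replicate 3 of the B cells. H2-Q1 had 4.01, 3.50 and 38.6 CPM in NOD.Idd2 B cells and 2.42, 3.26 and 45.7 CPM in NOD B cells, and H2-Q2 had 3.57, 2.95 and 26.6 CPM in NOD.Idd2 B cells and 2.80, 2.27 and 7.10 CPM in NOD B cells. In NOD.Idd2 dendritic cells the libraries had 19.9 to 20.8 CPM of H2-Q1 and 4.56 to 5.68 CPM of H2-Q2. H2-Q7 in NOD B cells had 65.1 CPM in replicate 2 and 64.8 CPM in replicate 3. H2-Q1 and H2-Q2 were named after their values were seen, and their part in the H2-Q6 and H2-Q7 values was not tested.

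These genes are close copies, so reads can be split between them. Of the 50-base stretches in the coding transcripts of H2-Q7 in the reference, 34.9% occurred in another gene, with H2-Q5 (17.4%) and H2-Q6 (17.02%) in front. For H2-Q6 the share was 31.97%, with H2-Q7 (13.9%) and H2-Q4 (12.3%) in front. The share was 43.9% for H2-T22, mostly with H2-T10 (37.5%), 28.8% for H2-T23, 24.3% for H2-Q4, 13.9% for H2-D1, 7.73% for H2-Q10, 6.87% for H2-K1, 3.17% for H2-T24 and 0.576% for H2-M3. How the authors' counting treated such reads is not given in the sources used here. In this respect the separate values of H2-Q6, H2-Q7 and H2-T22 are the least certain.

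The other 6 genes did not pass the test between the strains in either cell type. H2-Q4, the source of the Qb-1 antigen, had 289, 304 and 252 CPM in NOD.Idd2 dendritic cells, against 238, 261 and 238 CPM in NOD dendritic cells. Its log2 fold change was 0.22 (SE 0.064, adjusted p = 0.162) in dendritic cells and 0.14 (SE 0.092, adjusted p = 0.858) in B cells. The groups overlapped in both cell types. H2-Q10, known in liver as a secreted class I molecule, had 26.6 to 30.1 CPM in NOD.Idd2 dendritic cells, against 31.0 to 37.1 CPM in NOD dendritic cells, and 10.6 to 16.7 CPM in NOD.Idd2 B cells, against 7.01 to 18.4 CPM in NOD B cells. Its log2 fold changes were -0.21 (SE 0.079, adjusted p = 0.320) in dendritic cells and 0.16 (SE 0.35, adjusted p = 0.994) in B cells.

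H2-T23, which encodes Qa-1, had 97.95, 93.9 and 101 CPM in NOD.Idd2 dendritic cells, against 117, 121 and 109.6 CPM in NOD dendritic cells. These groups did not overlap, and the log2 fold change of -0.24 (SE 0.057) missed the threshold (adjusted p = 0.0759). It passed in DESeq2 (adjusted p = 0.0271) and without NOD dendritic cell replicate 3 (adjusted p = 0.0308). In B cells it had 93.3 to 123 CPM in NOD.Idd2, against 89.1 to 129 CPM in NOD, and a log2 fold change of 0.0024 (SE 0.16, adjusted p = 0.999).

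H2-T24 had 55.0 to 66.6 CPM in NOD.Idd2 dendritic cells, against 69.9 to 71.9 CPM in NOD dendritic cells (log2 fold change -0.18, SE 0.065, adjusted p = 0.301). In B cells it had 82.4 to 97.0 CPM in NOD.Idd2, against 75.2 to 83.6 CPM in NOD (log2 fold change 0.17, SE 0.070, adjusted p = 0.774). H2-M3 had 114 to 120.2 CPM in NOD.Idd2 dendritic cells, against 125 to 138 CPM in NOD dendritic cells (log2 fold change -0.16, SE 0.052, adjusted p = 0.234). Neither gene overlapped between the strains in dendritic cells, a trait without a background share over all genes. Both overlapped in B cells, where the log2 fold change of H2-M3 was -0.079 (SE 0.045, adjusted p = 0.825). H2-T22, a ligand of some gamma delta T cells, stayed under 9.3 CPM in every library and overlapped between the strains in both cell types, with log2 fold changes of -0.14 (SE 0.14, adjusted p = 0.783) in dendritic cells and -0.13 (SE 0.18, adjusted p = 0.966) in B cells.

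Across the 10 genes, 1 rose (H2-K1) and 3 fell (H2-D1, H2-Q6 and H2-Q7) in NOD.Idd2 dendritic cells, where 1.29% of 14441 genes passed the test, 0.665% higher and 0.623% lower. In B cells 1 fell (H2-D1) and none rose, where 0.16% of 15011 genes passed, 0.0733% higher and 0.0866% lower. The median log2 fold change of the 10 genes was -0.19 in dendritic cells, against 0.00060 over all genes tested, and -0.038 in B cells, against 0.0066. With the replicate block, 3 of the 10 genes passed in B cells (H2-K1 higher, H2-D1 and H2-Q6 lower), where 1.04% of all genes did. Because the 10 genes were chosen with earlier results of these data known, these counts are a description and no test of the list.

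**Figure D3:**
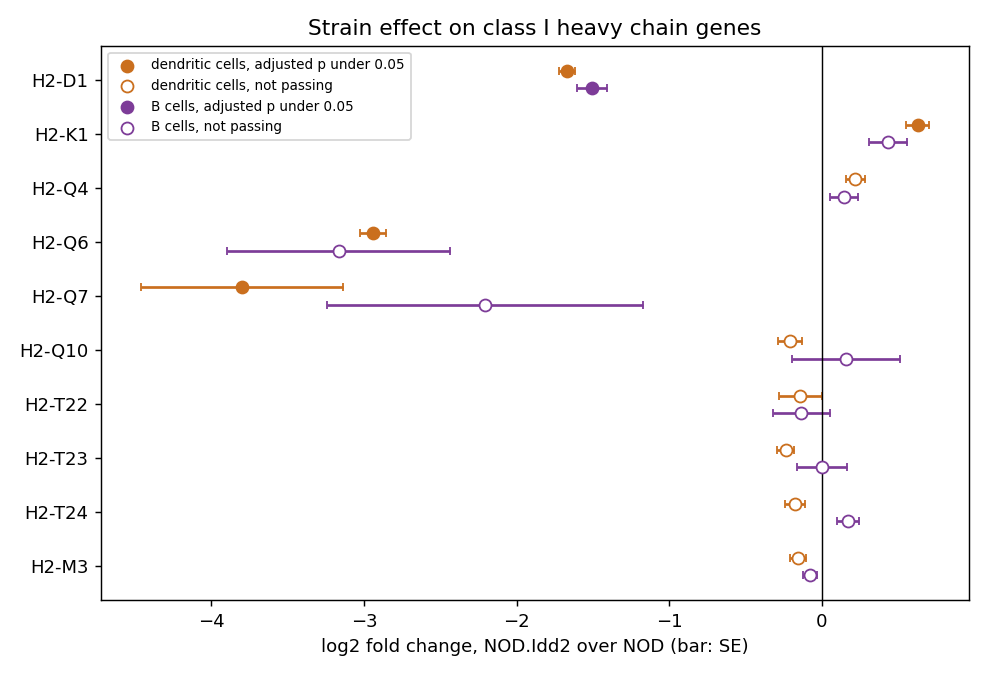
Log2 fold change (NOD.Idd2 over NOD, with its SE as the bar) of the 10 genes in dendritic cells and in B cells; filled points passed the test at an adjusted p under 0.05. H2-D1 lies at -1.67 and -1.51 with short bars, and H2-Q6 and H2-Q7 have long bars in B cells.

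The strain effects of the 2 cell types were compared in 1 fit of all 12 libraries. None of the 10 genes passed for a difference of strain effects, dendritic cells minus B cells, where 0.109% of 16588 genes did. H2-T24 was the 1 gene with an unadjusted p under 0.05 (difference -0.37 log2, SE 0.11, adjusted p = 0.329), and DESeq2 and limma-voom also called 0 of the 10. The difference was -0.18 (SE 0.11, adjusted p = 0.728) for H2-D1 and 0.18 (SE 0.16, adjusted p = 0.818) for H2-K1. For H2-Q6 it was 0.21 (SE 0.73, adjusted p = 0.996), but 1.697 without NOD.Idd2 B cell replicate 3 (adjusted p = 0.00166). Without all 4 replicate 3 libraries the H2-Q6 difference was 1.66 (adjusted p = 0.00255).

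Class I heavy chain CPM summed higher in dendritic cells than in B cells in both strains, as a share of the scaled library total and not an amount per cell. The summed CPM averaged 2156 ± 84.8 in NOD.Idd2 dendritic cells and 1593 ± 185 in NOD.Idd2 B cells, a ratio of 1.35 ± 0.17. It averaged 3261 ± 169 in NOD dendritic cells and 2198 ± 209 in NOD B cells, a ratio of 1.48 ± 0.16. The means are given with the SD of 3 libraries and the ratios with the SD carried over from both groups. The groups did not overlap in either strain. Of the 10 genes, 5 were higher and 2 lower in NOD.Idd2 dendritic cells than in NOD.Idd2 B cells, where 75.7% of 16588 genes passed, 36.7% higher and 38.9% lower. In NOD 5 were higher and 1 lower, where 76.4% of genes passed, 37.7% higher and 38.7% lower, so the counts called are near the background. The median log2 fold change of the 10 genes, dendritic cells over B cells, was 0.46 in NOD.Idd2, against -0.061 over all genes, and 0.48 in NOD, against -0.042.

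The same 5 genes were higher in dendritic cells in both strains. H2-M3 had 114 to 120.2 CPM in NOD.Idd2 dendritic cells, against 69.0 to 74.9 CPM in NOD.Idd2 B cells, and its log2 fold change was 0.72 (SE 0.049, adjusted p = 2.62e-08). In NOD the log2 fold change of H2-M3 was 0.82 (SE 0.049, adjusted p = 6.36e-09). H2-M3 did not overlap between the cell types in either strain. H2-D1 had log2 fold changes of 0.56 (SE 0.079) in NOD.Idd2 and 0.74 (SE 0.079) in NOD, with adjusted p-values of 3.15e-05 and 2.18e-06. H2-Q10 had the highest fold changes, 1.12 (SE 0.27, adjusted p = 0.00238) in NOD.Idd2 and 1.51 (SE 0.27, adjusted p = 2.39e-04) in NOD, at low levels. H2-Q4 was at 0.45 (SE 0.089, adjusted p = 5.42e-04) in NOD.Idd2 and 0.39 (SE 0.088, adjusted p = 0.00144) in NOD. H2-D1, H2-Q10 and H2-Q4 were also free of overlap between the cell types in both strains. The share of all genes free of overlap is not given. Of all genes, 75.7% passed the test between the cell types in NOD.Idd2 and 76.4% in NOD.

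H2-K1 was higher in dendritic cells by 0.48 (SE 0.11, adjusted p = 0.00173) in NOD.Idd2 and by 0.31 (SE 0.11, adjusted p = 0.0244) in NOD, on the log2 scale. In NOD its groups overlapped and the call ended without NOD B cell replicate 1 (adjusted p = 0.114), NOD B cell replicate 2 (adjusted p = 0.0655) or NOD dendritic cell replicate 2 (adjusted p = 0.148). H2-T24 was lower in dendritic cells in NOD.Idd2 (log2 fold change -0.52, SE 0.075, adjusted p = 4.24e-05), whereas in NOD it was at -0.15 (SE 0.074, adjusted p = 0.0886) and, of the alternatives run, passed without NOD.Idd2 dendritic cell replicate 2 (adjusted p = 0.0369). H2-T23 had log2 fold changes of -0.11 (SE 0.13, adjusted p = 0.453) in NOD.Idd2 and 0.15 (SE 0.13, adjusted p = 0.309) in NOD, the second of which passed without NOD B cell replicate 3 (0.32, adjusted p = 0.0114).

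H2-T22 was lower in dendritic cells, by a log2 fold change of -0.43 (SE 0.17, adjusted p = 0.0356) in NOD.Idd2 and -0.41 (SE 0.16, adjusted p = 0.0381) in NOD. It had 5.15, 5.79 and 5.91 CPM in NOD.Idd2 dendritic cells, against 5.64, 8.15 and 8.80 CPM in NOD.Idd2 B cells, and 6.07, 6.97 and 5.62 CPM in NOD dendritic cells, against 7.23, 8.27 and 9.28 CPM in NOD B cells. In both strains the call ended under limma-voom (adjusted p = 0.0799 in NOD.Idd2 and 0.0578 in NOD), with median-of-ratios size factors (0.0560 in NOD.Idd2 and 0.0505 in NOD) and without any one of several libraries. For NOD.Idd2 these were each NOD.Idd2 dendritic cell library, NOD dendritic cell replicates 1 and 3, and NOD.Idd2 B cell replicates 2 and 3, with adjusted p-values up to 0.1796. For NOD they were NOD dendritic cell replicates 1 and 3, NOD.Idd2 dendritic cell replicates 1 and 3, and NOD B cell replicates 2 and 3, with adjusted p-values up to 0.167.

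H2-Q6 and H2-Q7 did not pass between the cell types in the fit of 12 libraries, which takes 1 spread from all 4 groups. In NOD both were free of overlap, and their log2 fold changes of 0.57 (SE 0.49, adjusted p = 0.302) and 1.02 (SE 0.91, adjusted p = 0.322) passed in a fit of the 6 NOD libraries alone (adjusted p = 0.00147 and 2.60e-05). In NOD.Idd2 both overlapped between the cell types. H2-Q6 was at 0.78 (SE 0.54, adjusted p = 0.204), and at 2.29 without NOD.Idd2 B cell replicate 3 (adjusted p = 1.45e-08). H2-Q7 had a ratio of means of 1.004, dendritic cells over B cells, and a fitted log2 fold change of -0.42 (SE 1.1, adjusted p = 0.744).

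**Figure D4:**
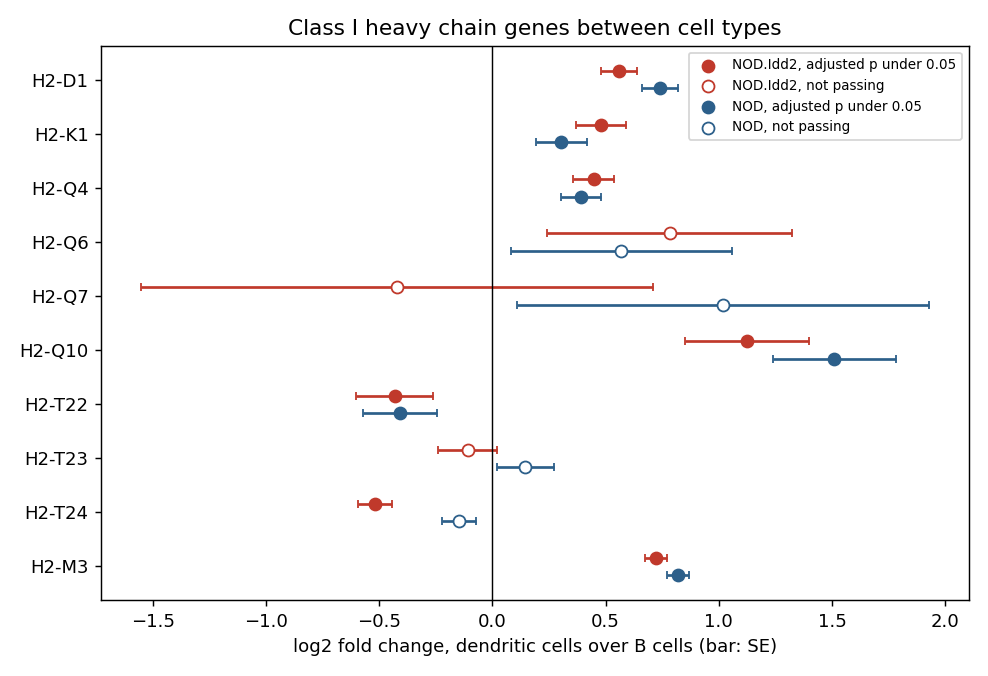
Log2 fold change (dendritic cells over B cells, with its SE as the bar) of the 10 genes in NOD.Idd2 and in NOD; filled points passed the test at an adjusted p under 0.05. H2-Q10, H2-M3, H2-D1, H2-Q4 and H2-K1 lie to the right of 0 in both strains, H2-T22 lies to the left, and the bars of H2-Q6 and H2-Q7 are the longest.

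Levels of different genes were compared as CPM per kilobase of exon. The effect of the Kd allele on the level counted for H2-K1 was not tested. In NOD.Idd2 dendritic cells H2-K1 (343 ± 26.3) stood first, then H2-D1 (199 ± 9.53), H2-Q4 (109 ± 10.4) and H2-M3 (81.8 ± 2.20), each apart from the next by more than their SDs (n = 3). In NOD dendritic cells H2-D1 (640.2 ± 26.2) stood first and H2-K1 (225 ± 21.2) second, and H2-Q6 (106 ± 12.3), H2-Q4 (94.6 ± 5.26) and H2-M3 (92.3 ± 4.65) followed without a gap beyond their SDs. In NOD.Idd2 B cells the order was again H2-K1 (246 ± 28.3), H2-D1 (135 ± 16.9) and H2-Q4 (79.8 ± 4.47). In NOD B cells it was H2-D1 (383 ± 23.3), H2-K1 (182 ± 26.7) and then H2-Q4 (72.2 ± 8.43) and H2-Q6 (71.4 ± 9.68), which did not differ beyond their SDs. Among 16299 genes ranked per kilobase, H2-D1 stood at place 108 in NOD.Idd2 dendritic cells and 23 in NOD dendritic cells, and at 197 in NOD.Idd2 B cells and 58 in NOD B cells. H2-K1 stood at 42 in NOD.Idd2 dendritic cells and 90 in NOD dendritic cells, and at 84 in NOD.Idd2 B cells and 128 in NOD B cells. H2-T22 was last of the 10 in every group, and in both B cell groups and NOD.Idd2 dendritic cells it did not stand apart from the gene before it.

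The 10 genes span 3.28 Mb from H2-K1 to H2-M3, with 6 on the plus strand and 4 on the minus strand, and the genes between them were tested in the same fits. Neighbours were all tested genes there except the 10 genes and other H2 class I symbols, so class I copies under other symbols may be among them. In dendritic cells 3 of 122 neighbours rose and 3 fell, at a background of 0.665% and 0.623%. Those that rose were Ltb (lymphotoxin beta; log2 fold change 0.40, SE 0.074), Tubb5 (a tubulin; 0.35, SE 0.052) and Dhx16 (an RNA helicase of splicing; 0.30, SE 0.061). Those that fell were Gm11131 (-1.16, SE 0.21), Tnf (the cytokine; -0.61, SE 0.11) and Gabbr1 (a subunit of the GABA-B receptor; -0.37, SE 0.074). In B cells 1 of 120 neighbours fell, again Gm11131 (-1.44, SE 0.0997), and none rose, at a background of 0.0866% lower. These neighbours were named after their values were seen. Of the 10 genes, those called in dendritic cells were thus H2-K1 at one end and H2-D1, H2-Q6 and H2-Q7 at 1.267, 1.429 and 1.443 Mb from it, and H2-Q4, at 1.384 Mb between them, did not pass.

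**Figure D5:**
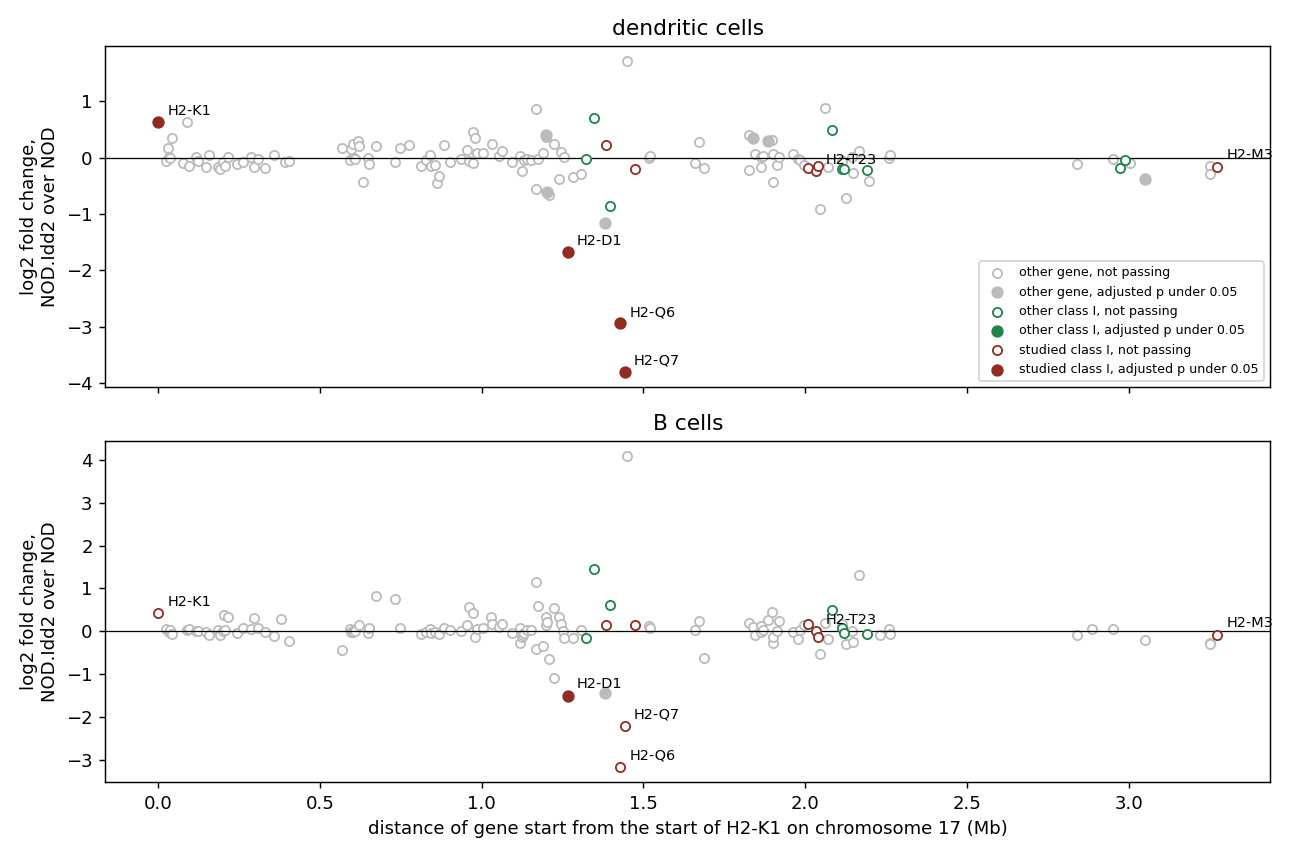
Log2 fold change (NOD.Idd2 over NOD) of every tested gene from H2-K1 to H2-M3 against the distance of its start from that of H2-K1, for dendritic cells above and B cells below; filled points passed the test. H2-D1, H2-Q6 and H2-Q7 fall below nearly all their neighbours, most of which lie near 0.

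Of the other H2 class I symbols, 13 were in the table. In dendritic cells 11 were tested and 1, H2-M2, fell, where 0.623% of all genes passed lower. H2-M2 had 223, 211 and 208 CPM in NOD.Idd2 dendritic cells, against 352, 341 and 258 CPM in NOD dendritic cells (log2 fold change -0.55, SE 0.095, adjusted p = 0.0157). In B cells 9 were tested and none passed with edgeR, where 0.16% of all genes did. H2-M2 was under 1 CPM in every B cell library.

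Of 14 genes that supply peptides to class I molecules or assemble and load them, none passed between the strains with edgeR in dendritic cells or in B cells. Of all genes tested, 1.29% passed in dendritic cells and 0.16% in B cells. The median log2 fold change of the 14 genes was -0.071 in dendritic cells, where 3 lay above 0, and 0.0079 in B cells, where 8 did. B2m, the light chain, had 1915.5 to 2123 CPM in NOD.Idd2 dendritic cells, against 2076 to 2288 CPM in NOD dendritic cells, and 785 to 838 CPM in NOD.Idd2 B cells, against 783 to 820 CPM in NOD B cells. Both pairs overlapped, and the log2 fold changes of B2m were -0.10 (SE 0.055, adjusted p = 0.517) in dendritic cells and 0.0036 (SE 0.042, adjusted p = 0.999) in B cells. Between the cell types, 12 of the 14 were higher in dendritic cells in NOD.Idd2 and none lower, where 36.7% of all genes were higher and 38.9% lower. In NOD 13 were higher and 1 lower, where 37.7% of all genes were higher and 38.7% lower. B2m was higher in dendritic cells by a log2 fold change of 1.33 (SE 0.052, adjusted p = 8.97e-11) in NOD.Idd2 and 1.45 (SE 0.052, adjusted p = 3.52e-11) in NOD, more than any of the 10 heavy chain genes that passed except H2-Q10 in NOD.

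Among genes for factors that act on class I promoters, Nlrc5, the class I transactivator, fell in NOD.Idd2 dendritic cells. It had 193, 182 and 181 CPM in NOD.Idd2 dendritic cells, against 226, 242 and 221 CPM in NOD dendritic cells (log2 fold change -0.29, SE 0.051, adjusted p = 0.0166). The groups did not overlap. In B cells the log2 fold change of Nlrc5 was -0.080 (SE 0.12, adjusted p = 0.970). Of 13 class I-like genes outside the H2 region, 9 were in the table. None of the 7 tested in dendritic cells passed between the strains, where 1.29% of all genes did. None of the 6 tested in B cells passed, where 0.16% did.

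Genes whose pattern was most like that of the classical genes were sought among 8583 genes with a mean of at least 5 CPM in each cell type, by Pearson's r of log2 CPM centred on the cell type mean over the 12 libraries. The 12 points share the strain difference and the libraries themselves, so r is a description. For H2-D1 these were Mtr (methionine synthase; r = 0.973, chromosome 13), Gramd1b (a sterol transporter; r = 0.955, chromosome 9), Cep170b (r = 0.907, chromosome 12), Asxl2 (a chromatin regulator; r = 0.897, chromosome 12) and Pmaip1 (the proapoptotic Noxa; r = 0.890, chromosome 18). For H2-K1 they were Ubr2 (a ubiquitin ligase; r = 0.922, chromosome 17), Desi1 (a SUMO protease; r = 0.914, chromosome 15), Ltb (r = 0.907, chromosome 17), Slc37a2 (a sugar phosphate transporter; r = 0.905, chromosome 9) and Dhx16 (r = 0.877, chromosome 17).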

How the data were processed

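Per the submitters' processing notes, reads were aligned with STAR (version written as 0.12.2) to GRCm38; how genes were counted, with which annotation, strand setting and filters, is not given in the sources used here. Whole-number raw counts per gene symbol were deposited by the authors for 12 libraries, as were normalized counts, a signal equal to the counts divided by 1 size factor per library. Groups and replicate numbers were taken from the titles. The 10 genes and all lists were chosen with earlier results of these data known.

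In R 4.3.3, CPM were computed with edgeR 4.0.16 and TMM scaling over 12 libraries. Low-count genes were removed with filterByExpr (minimum count 10, minimum total 15). The quasi-likelihood test of edgeR was run on the 6 libraries of a cell type for strain effects, and on all 12 libraries for all other contrasts, with Benjamini-Hochberg adjustment over all genes and a threshold of 0.05. The test was checked on simulated counts. The SE is the size of the log2 fold change divided by the square root of F. Alternatives used DESeq2 1.42.0, limma 3.58.1 (voom, and log2 of the deposited normalized counts plus 1), other scalings and filters, and left-out libraries. Positions and exon lengths came from GENCODE M21 (GRCm38), which need not be the authors' annotation. All 10 genes were reported in every comparison; of each list, called genes with the smallest p, up to 4, were named between the strains, and for likeness the 5 highest r. One called gene among the factors that act on class I promoters, and the counts for that list, are not reported here.

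No pair of replicates agreed within sampling noise (lowest chi-square per gene 3.28). The labels number the replicates 1 to 3 in every group. Deviations from the group mean correlated between same-numbered B cell libraries of the strains at 0.519, 0.326 and 0.753, over 0.1 in every pair, so a blocked fit (replicate number) is given where it changes a call. Replicates 1 and 2 also correlated across numbers (0.395 and 0.355), so the data do not tell those 2 apart. In dendritic cells the same correlations were 0.012, 0.014 and 0.061. The effect of the NOD alleles on alignment to the reference was not tested.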

Additional observations from a re-analysis of the deposited data

How the results depend on the processing

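No value of the 10 genes, their sum or the H2-D1 to H2-K1 ratio that passed or was given without a test reversed under any alternative. Sums and ratios moved by less than the spread between replicates. Of the single-gene values, 817 kept their side of the threshold, 25 newly passed and 27 no longer did. In B cells, 1 of the 10 genes and 24 of all genes passed; the counts were 2 and 122 with DESeq2, 2 and 42 in the fit of all 12 libraries, 3 and 156 with the replicate block, 1 to 3 and 13 to 18 without 1 library (13 and 14 without NOD.Idd2 replicates 1 and 2, 15 without NOD replicate 2; 3 of the 10 genes without NOD.Idd2 replicate 3), and 3 and 46 without both replicate 3 libraries, an alternative chosen after seeing the data. In dendritic cells, 4 of the 10 genes passed, and 3 to 6 under the alternatives. There 186 of all genes passed, 296 with DESeq2, 700 without the low-count filter, 94 in the fit of all 12 libraries, 63 to 332 without 1 library (71, 63 and 77 without NOD.Idd2 replicates 1, 2 and 3, 118 and 332 without NOD replicates 2 and 3) and 109 without both replicate 3 libraries (chosen after seeing the data). Of the 10 genes, H2-Q4 (adjusted p = 0.00497) and H2-T23 (adjusted p = 0.0114) passed without the filter. For the difference of strain effects, 0 of the 10 genes became 1 (H2-Q6) without NOD.Idd2 B cell replicate 3 (range 0 to 1 without 1 library) and 1 without all 4 replicate 3 libraries; 18 of all genes became 114 with DESeq2, 33 without the filter, 56 with the replicate block and 7 to 19 without 1 library (9, 7 and 10 without NOD.Idd2 dendritic cell replicates 1, 2 and 3, 11 without NOD.Idd2 B cell replicate 1 or 2, 9 without NOD B cell replicate 1). Fits without a library had fewer samples, and those without the filter had more genes; otherwise the cause was not tested. Replicate numbers did not pair the cell types within a strain (correlations of -0.040 to 0.049); the block there was fitted on the 6 libraries of a strain. Set against the same 6 libraries without it, it let H2-Q6 pass in NOD.Idd2 (adjusted p = 0.0325, against 0.280), whereas H2-Q6 and H2-Q7 in NOD passed, and H2-T22 in NOD.Idd2 did not (adjusted p = 0.0539 and 0.0765), with and without it. Between the strains the block let H2-K1 and H2-Q6 pass in B cells and changed no other call of the 10 genes. Counts were low for H2-T22 and, in replicates 1 and 2 of NOD.Idd2, for H2-Q7. In NOD.Idd2 dendritic cells H2-Q7 had 52, 70 and 307 counts, the 307 in the shallowest library.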
